A study of Mus musculus with 2 samples.

Results

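The cells described here were 162 of 2335 cells from mouse small-intestinal crypts that carried the transcript of a yellow fluorescent reporter (YFP) and few transcripts of Chga and Tph1. A cell was taken when its counts of hashtags 1 and 2 together were at least 3 times those of hashtags 3 and 4. It also had to hold fewer than 5 UMIs of Chga, fewer than 5 of Tph1 and at least 5000 UMIs in all, where a UMI is the count of 1 captured transcript. These limits left 551 cells. The 162 with at least 3 YFP UMIs are called labelled, the 340 with 0 are called unlabelled, and the 49 with 1 or 2 were left out of the comparison. The members were thus chosen by their YFP, Chga, Tph1, hashtag and total counts, and these values are given as description.

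All cells came from the same genotype, ChgaCreER-tdTomato::Rosa26LSL-eYFP, and the same treatment, 5 tamoxifen injections of 1 mg on successive days. The unlabelled cells are therefore not cells of an untreated or Cre-negative animal, and neither a time after tamoxifen nor an age is used here. Cells sorted for eYFP and epithelial cells sorted in bulk carried different hashtags and were loaded together, giving 1 expression library. Which hashtags mark which sort was not given in the sources used here. Cells sorted for eYFP may therefore be among the unlabelled cells, which were called by captured YFP transcripts alone. Whether unlabelled cells held YFP protein or had recombined was not tested. With 1 library and no replicate no test between groups was possible, and intervals below (exact Clopper-Pearson for shares, exact Poisson for summed UMIs, all 95%) cover counting error only.

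Chga encodes chromogranin A, a protein of the dense-core granules of enteroendocrine cells, and Tph1 encodes the enzyme that starts serotonin synthesis in the enterochromaffin cells among them. In this mouse, Cre recombinase fused to a modified oestrogen receptor is made where Chga is active, and tamoxifen lets it remove a stop cassette from the Rosa26 locus. YFP is then made by the recombined cell and by all its descendants, whatever these go on to express. Crypts are renewed by dividing stem cells at their base that express Lgr5, a receptor for R-spondins. Their progeny become absorptive enterocytes or secretory cells, namely goblet, Paneth, tuft and, through a short phase of Neurog3 expression, endocrine cells. Labelled cells without endocrine transcripts are of interest in such a design because they can show where recombination or descent reached beyond the endocrine lineage.

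YFP, which chose the labelled cells, is given here with the background in other cells. In labelled cells it ran from 3 to 36 UMIs with a median of 9, which is 42.7 to 1004 counts per 1000000 UMIs of the cell (CPM) with a median of 420. Of 264 cells with hashtags 3 and 4 under the same limits, 1 held at least 3 YFP UMIs (0.379%; 0.00959 to 2.09%) and 18 held at least 1 (6.82%), at a median of 28781 UMIs. Among 106 cells of hashtags 3 and 4 with at least 20 UMIs of lymphocyte genes, which should lack YFP, 5 held at least 1 (4.72%; 1.55 to 10.7%). Of these 106 cells 0 held 3 or more, with an exact upper bound of 3.42%. Their median was only 2719.5 UMIs, so they cannot bound the background at 3 UMIs in cells as deep as the labelled ones. Just inside the limit, 15 cells with 3 YFP UMIs had a median of 92.0 CPM, and just outside it 22 cells with 2 had 131 CPM. For Chga, 6 cells of the gate held 4 UMIs, 5 of them labelled, and 4 cells with hashtags 1 and 2 held 5 UMIs and were left out, 0 of them with 3 YFP UMIs or more.

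The tdTomato transcript of the driver allele was low in labelled and unlabelled cells alike. It is made from the Chga allele, so the limit of fewer than 5 Chga UMIs also bore on it. Its level is thus description and cannot tell driver activity in the 2 groups apart. It stood at 9.94 CPM in labelled and 9.98 CPM in unlabelled cells, with at most 3 and 4 UMIs in a cell. It was found in 23.5% of labelled cells (17.2 to 30.7%), 20.6% of unlabelled cells (16.4 to 25.3%) and 26.4% of unlabelled cells with hashtags 3 and 4 (21.0 to 32.4%), at median depths of 27371.5, 21653.5 and 28827.5 UMIs. Of the 288 cells with hashtags 1 and 2 that the Chga or Tph1 limit removed, 88.9% held tdTomato at a median of 12665 UMIs. Of those 288 cells 153 held at least 3 YFP UMIs (53.1%; 47.2 to 59.0%), with a median of 326 YFP CPM, against the 420 of the cells described here.

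Depth and sex-linked transcripts differed between the groups and are given beside the results. Labelled cells held 5595 to 100966 UMIs, 4827264 in all, and unlabelled cells 5556 to 129719, 8917749 in all; mitochondrial shares had medians of 7.08% and 7.69%. The labels name 1 mouse, yet 2 kinds of cell were present, Xist-only cells (3 or more UMIs of Xist, Y-linked genes at 0) and Y-only cells (1 or more Y-linked UMIs, Xist at 2 or fewer). Xist-only cells made up 118 of 162 labelled cells (72.8%; 65.3 to 79.5%) and 218 of 340 unlabelled cells (64.1%; 58.8 to 69.2%). Y-only cells made up 32 (19.8%; 13.9 to 26.7%) and 103 (30.3%; 25.5 to 35.5%). With hashtags 3 and 4, 240 of 246 unlabelled cells were Xist-only and 0 were Y-only. Cells with at least 3 Xist and at least 2 Y-linked UMIs were few, 2 labelled and 4 unlabelled. Transcripts of both sexes were thus present, mostly in separate cells. Labelled cells were 32.5% of the Xist-only and 21.1% of the Y-only cells of the gate. How many animals were pooled cannot be told from the labels, so values are repeated within each kind of cell.

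The absence of endocrine transcripts did not hold for every labelled cell. A list of 49 genes of granule proteins, hormones and endocrine transcription factors, without Chga and Tph1, made up at least 1% of the UMIs in 20 of 162 labelled cells (12.3%; 7.71 to 18.4%). It did so in 5 of 340 unlabelled cells (1.47%; 0.479 to 3.40%). In the 20 labelled cells the list took 1.08 to 27.9% of the UMIs, while Chga lay between 0 and 4 and was 0 in 7 of them. Cck, the gene of cholecystokinin, led in 10 of these cells, Gip, the gene of the incretin GIP, in 5, Chgb and Sst (somatostatin) in 2 each, and Ghrl (ghrelin) in 1. One cell held 3300 Gip UMIs of 12924 with Chga at 0 and YFP at 5. Another held 1450 UMIs of Cck and 534 of Gcg, the gene of glucagon-family peptides, among 10010, with Chga at 4. These are hormones of endocrine types other than the serotonin cells that Tph1 marks. Counted over all hormone-rich cells of the gate, 20 of 36 were labelled (55.6%; 38.1 to 72.1%), beside the 53.1% of the cells removed by the Chga or Tph1 limit.

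Some hormone-rich cells also held many transcripts of cell division. Of the 20, 7 met the mitotic limit used below. One held 1850 Gip UMIs of 42628 with 44 UMIs of Mki67 and Top2a together and 16 of YFP. Another held 468 Sst and 373 Chgb UMIs of 32715, with 40 of Mki67 and Top2a, 6 of Lgr5, 3 of Neurog3 and 19 of YFP. The 7 cells held 14075 to 43504 UMIs. Of them 6 were among the 6% of cells with the highest scores of the doublet caller Scrublet. So were 14 of all 162 labelled cells, these 6 included. Of all mitotic cells, 13 of 60 labelled and 12 of 121 unlabelled ones were among that 6%. Whether a hormone-rich mitotic barcode held 1 cell or more was not tested.

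A second set of labelled cells was filled with Paneth cell transcripts. Defensins and Lyz1, the antimicrobial products of Paneth cells, made up at least 1% of the UMIs in 12 labelled cells (7.41%; 3.89 to 12.6%) and 11 unlabelled cells (3.24%; 1.63 to 5.72%). In 9 of the 12 they took 47.7 to 63.2% of the UMIs. Those 9 cells were deep, with 53374 to 100966 UMIs, and low in mitochondrial transcripts, at 0.343 to 2.09%. Their YFP was 3 to 5 UMIs, or 42.7 to 90.8 CPM, at the foot of the labelled range. With hashtags 1 and 2, 14 cells had at least 40% of these transcripts, of which 2 held 0 YFP UMIs, 3 held 1 or 2, and 9 held 3 to 5. With hashtags 3 and 4 there were 3 such cells, and all were at 0. The other 3 Paneth-rich labelled cells, with 1.03 to 5.49% of these transcripts, held 4, 10 and 25 YFP UMIs among 13876, 21042 and 58253.

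**Figure D1:**
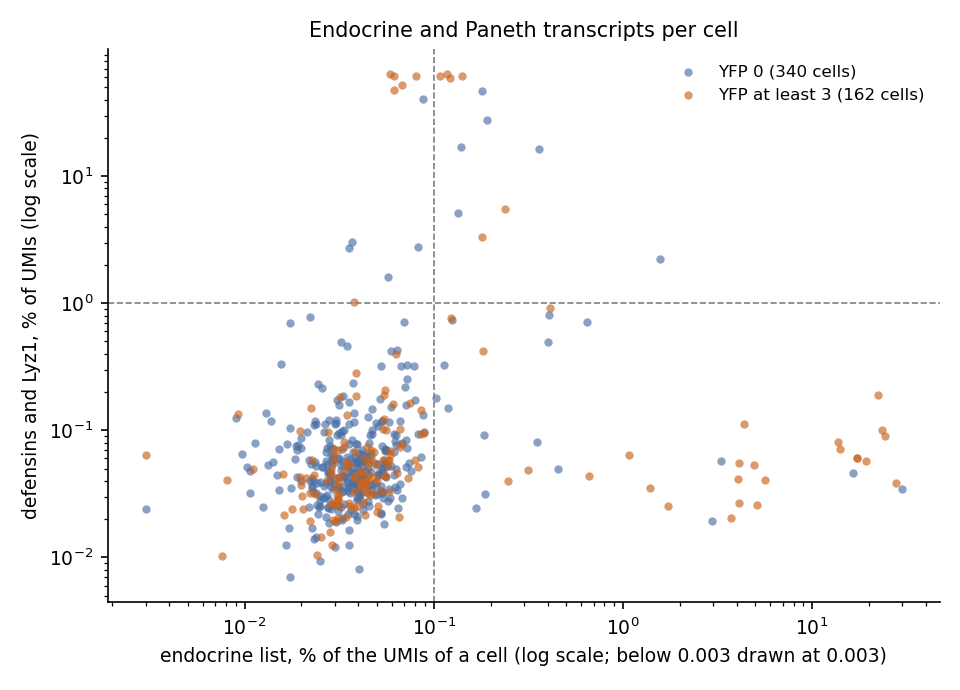
Share of the UMIs of each cell taken by the endocrine list (x axis, log scale, %) against the share taken by defensins and Lyz1 (y axis, log scale, %), for 162 labelled and 340 unlabelled cells. Dashed lines mark 0.1% and 1%, and the labelled cells form 2 arms outside the main cloud, hormone-rich cells to the right and Paneth-rich cells at the top.

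**Figure D2:**
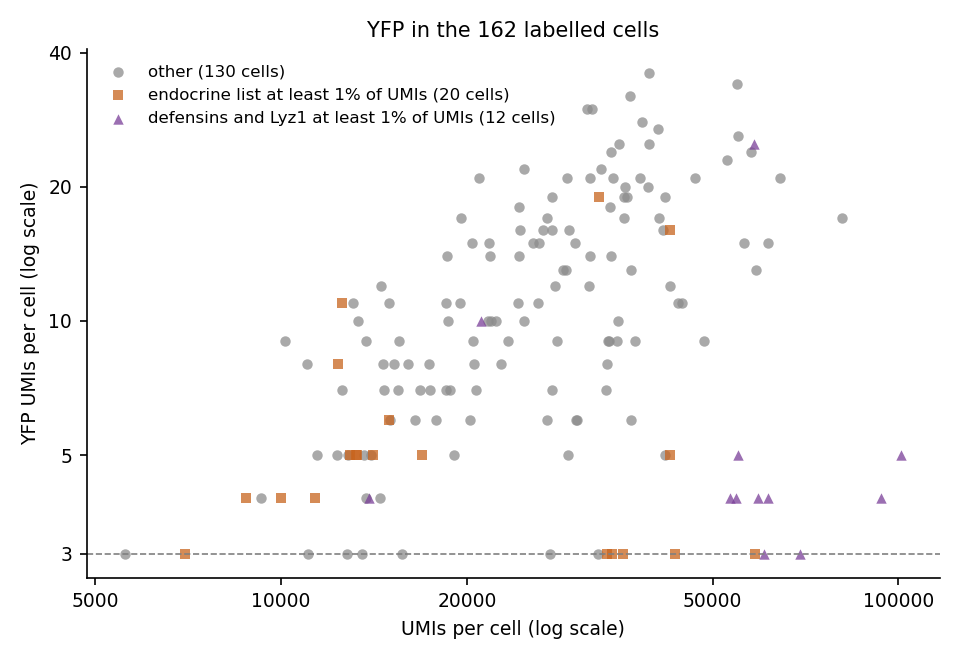
YFP UMIs against all UMIs for each of the 162 labelled cells (both axes on log scales), with cells rich in endocrine or Paneth transcripts marked. The dashed line is the limit of 3 UMIs; most Paneth-rich cells sit near it at the right, and hormone-rich cells spread from 3 to 19 YFP UMIs.

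Because these cells hold much of the RNA, results are given for all labelled cells and again without them. The stricter set, chosen after these values were seen, required the endocrine list below 0.1% and defensins with Lyz1 below 1% of the UMIs. It kept 124 labelled cells (76.5%) and 313 unlabelled cells (92.1%). Genes of the endocrine list, defensins and Lyz1 are not among the genes counted as past a fold in this set. Its labelled cells had a median of 453 YFP CPM (92.0 to 1004) and of 26967 UMIs, against 22077 UMIs in its unlabelled cells. Of all 469 gate cells in this set, 124 were labelled (26.4%; 22.5 to 30.7%).

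The classes of the crypt were all found among labelled cells, and the share of Lgr5 cells was the one that stood higher. Stem cells, taken as cells with at least 3 Lgr5 UMIs, were 49 of 162 labelled cells (30.2%; 23.3 to 37.9%) and 74 of 340 unlabelled cells (21.8%; 17.5 to 26.5%). The difference was 8.48 points, with a Newcombe interval of 0.429 to 17.0, although the intervals of the shares overlap. Intervals were apart in the stricter set, with 45 of 124 cells (36.3%; 27.8 to 45.4%) against 67 of 313 (21.4%; 17.0 to 26.4%), a difference of 14.9 points (5.57 to 24.6). From the full to the stricter set, labelled stem cells went from 49 to 45 while all labelled cells went from 162 to 124. Unlabelled stem cells went from 74 to 67 and all unlabelled cells from 340 to 313. The labelled cells taken out were thus mostly not stem cells, which by itself raised the labelled stem share. Among Xist-only cells of the stricter set the stem share was 37.9% against 24.6%, a difference of 13.3 points (2.13 to 24.7). Among Y-only cells it was 6 of 22 cells (27.3%) against 16 of 97 (16.5%), 10.8 points with an interval of -5.77 to 32.5. None of the enterocytes or goblet cells of either group met the Lgr5 limit.

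The share was also taken at equal depth. When each cell was thinned to 5000 UMIs and 1 Lgr5 UMI was asked for, the stricter set had 29.8% (22.0 to 38.7%) against 21.7% (17.3 to 26.7%), a difference of 8.11 points with an interval of -0.717 to 17.7. In the full set the thinned shares were 24.1% and 21.8%. The stem cells themselves had like depths, with medians of 26597 UMIs in labelled and 26448.5 in unlabelled cells. The unlabelled cells with hashtags 3 and 4 had a stem share of 43.9% (37.6 to 50.3%), above that of the unlabelled cells with hashtags 1 and 2; thinned, it was 31.3% (25.6 to 37.5%) against 21.8%. By value, before and after thinning, the stem share of labelled cells lay between those of the unlabelled cells of the 2 hashtag pairs.

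Read from the other side, labelling was spread over the classes. Labelled cells were 37.1% of the stem cells of the gate (28.9 to 46.0%), 30.3% of the mitotic cells, 30.8% of the enterocytes, 25% of the goblet cells and 26.2% of the cells in no class (20.6 to 32.5%), against 29.4% of all gate cells (25.6 to 33.4%). In the stricter set the stem value was 37.2% (28.6 to 46.4%) and that of cells in no class 20.8% (15.1 to 27.4%), with intervals apart. Cells in no class, which met none of the 5 limits, were 38 of 124 labelled cells there (30.6%; 22.7 to 39.6%) and 136 of 313 unlabelled cells (43.5%; 37.9 to 49.1%). The YFP level of labelled cells was similar between classes, with medians of 399 CPM in stem cells, 451 in mitotic cells, 405 in goblet cells and 400 in cells of no class. The 8 enterocytes had a median of 623 CPM (327 to 942), and each of them held at least 11 YFP UMIs.

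Dividing cells were as common among labelled as among unlabelled cells within counting error. Mitotic cells, with at least 10 UMIs of Mki67 and Top2a together, were 60 labelled cells (37.0%; 29.6 to 45.0%) and 121 unlabelled cells (35.6%; 30.5 to 40.9%), a difference of 1.45 points with an interval of -7.33 to 10.5. Without the hormone- and Paneth-rich cells they were 41.9% and 37.1% (4.87 points; -5.08 to 15.1), and after thinning 41.1% and 43.8%. Depth and YFP moved together with this class, and their parts in it were not tested. Labelled cells with at least 10 YFP UMIs had a median of 31698.5 UMIs and were mitotic in 57.5%, while those with 3 to 9 had a median of 18159.5 UMIs and were mitotic in 17.1%. Of the 49 labelled stem cells 22 were also mitotic, as were 31 of the 74 unlabelled ones.

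The remaining classes were small, and their shares did not differ beyond counting error. Enterocytes, with at least 2 UMIs of the brush-border phosphatase gene Alpi, were 8 labelled cells (4.94%; 2.16 to 9.50%) and 18 unlabelled cells (5.29%; 3.17 to 8.24%). Goblet cells, with at least 0.5% of UMIs from the mucus genes Agr2, Fcgbp and Muc2, were 8 (4.94%) and 21 (6.18%; 3.86 to 9.29%). Cells with at least 3 Neurog3 UMIs were 3 (1.85%; 0.384 to 5.32%) and 4 (1.18%; 0.321 to 2.98%). For tuft cells, 1 labelled and 5 unlabelled cells held 20 UMIs or more of a marker list.

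**Figure D3:**
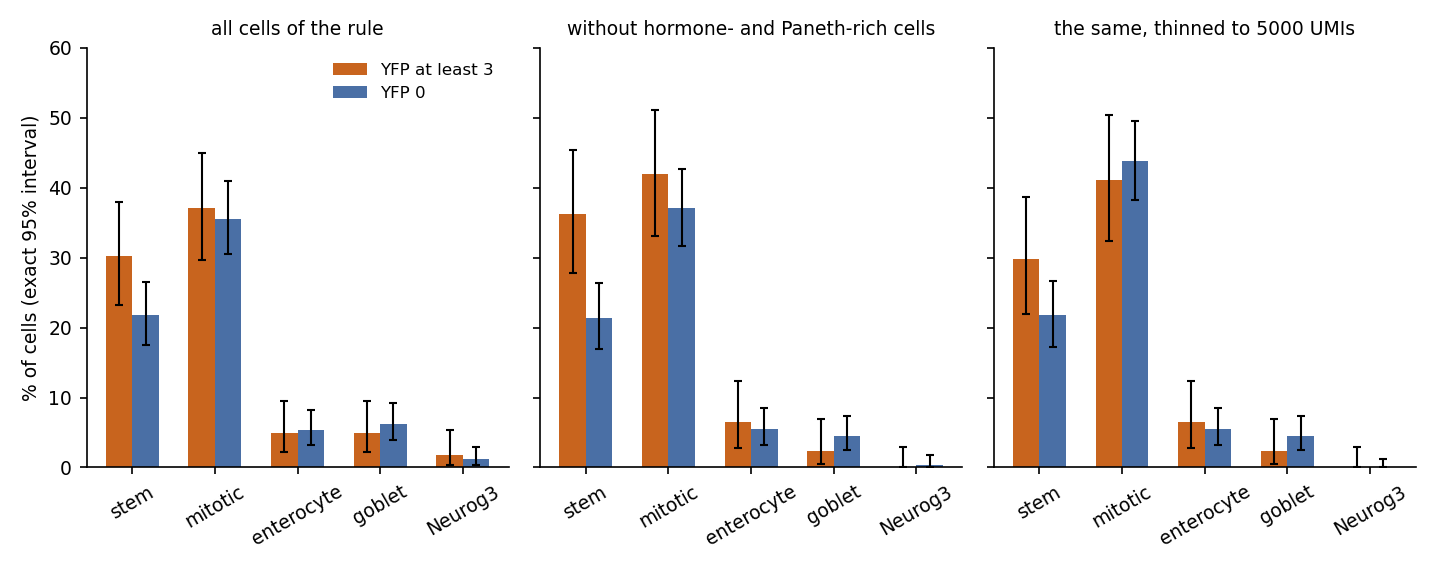
Percent of labelled and unlabelled cells in each class (bars) with exact 95% intervals (lines): all cells of the rule, the stricter set, and the stricter set after thinning each cell to 5000 UMIs. The stem share of labelled cells is 30.2%, 36.3% and 29.8% in the 3 panels, against 21.8%, 21.4% and 21.7% of unlabelled cells. Neurog3 is a gene of the endocrine list that limits the stricter set, so that limit itself lowers the Neurog3 bars there.

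Summed over all cells, the genes higher in labelled cells were almost entirely those of the Paneth- and hormone-rich cells. Levels are summed UMIs per 1000000, and ratios are log2 values of labelled over unlabelled with 10 CPM added to both. Of 6761 genes with at least 200 UMIs, 76 (1.12%) lay at least 1.5-fold apart, 63 higher (0.932%) and 13 lower (0.192%), and 91.0% lay within 1.2-fold. The defensin gene Defa30 stood at 22565.6 CPM against 1462 (log2 ratio 3.94), Lyz1 at 4757 against 419 (3.47), Ghrl at 542 against 22.7 (4.08) and Cck at 2297 against 159.9 (3.76). Defa29, Defa21, Mptx2, AY761184, Clps and the endocrine gene Rbp4 followed, at 3.97, 3.68, 3.66, 3.31, 3.21 and 3.12. The 9 cells with 47.7% or more of Paneth transcripts held 98.8% of the defensin and Lyz1 UMIs of the labelled cells. The 20 hormone-rich cells held 93.6% of their endocrine-list UMIs. Lower genes were Retnlb (0.621 against 58.1 CPM; -2.68), a goblet cell product, Fyb (-0.97), the fatty acid carrier Fabp1 (192 against 358; -0.87), Guca2a (-0.76), the heat shock genes Hspa1a (-0.71) and Hspa1b (-0.69) and the goblet genes Fcgbp (-0.67), Tff3 (-0.63) and Zg16 (-0.60).

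By list, in all labelled cells, 11 of 11 measured Paneth genes were at least 1.5-fold higher (median log2 ratio 2.65), as were 13 of 16 granule genes (0.96), 8 of 13 hormone and amine genes (1.62) and 9 of 14 endocrine factors (0.78). Over all 11269 genes with at least 20 UMIs the shares were 1.14% higher and 0.142% lower, with a median of -0.06. Of 18 stem genes, 16 mitotic genes, 16 replication genes and 9 Notch pathway genes, 0 were past 1.5-fold in either direction.

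Without the hormone- and Paneth-rich cells, and without the genes that chose them, the 2 groups were close. Of 6289 genes with at least 200 UMIs, 23 (0.366%) were at least 1.5-fold apart, 8 higher (0.127%) and 15 lower (0.239%), and 95.2% lay within 1.2-fold. Lgr5 stood at 97.5 CPM (87.5 to 108) in labelled and 64.3 (58.9 to 70.0) in unlabelled cells, a log2 ratio of 0.53, which is below 1.5-fold, and it was found in 61.3% and 47.9% of the cells. The ratio was 0.42 among Xist-only and 0.54 among Y-only cells. Olfm4, a secreted glycoprotein of crypt base cells, stood at 5423 against 4627 CPM (0.23), with -0.08 among Y-only cells. The other stem genes did not follow Lgr5 by the same margin. Ascl2, a transcription factor of Lgr5 stem cells, had 61.3 against 60.9 CPM, Smoc2 166 against 153, and the Wnt target Axin2 129 against 128, with overlapping intervals. Of 18 stem genes 2 had intervals apart, both higher, and the median ratio was 0.07. Over all 10902 genes with at least 20 UMIs in this set the median was 0.01, 1.71% had intervals apart higher and 1.17% lower, and 0.0826% were past 1.5-fold higher and 0.211% lower. The list counts that follow for the stricter set are to be read against these shares.

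Genes reported in slow-cycling or reserve stem cells showed 1 difference of some size. Mex3a, an RNA-binding protein gene, had 18.4 CPM (14.2 to 23.4) in labelled and 9.56 (7.57 to 11.9) in unlabelled cells of the stricter set (0.54), with 0.73 among Xist-only and 0.24 among Y-only cells. Hopx had 102 against 108 CPM, Bmi1 12.4 against 12.6 and Lrig1 46.3 against 38.9, and their intervals overlapped. Of 6 measured members 2 had intervals apart, the other being Krt19 at 0.10. Wnt pathway genes gave 0 of 10 with intervals apart. Of 9 Notch pathway genes 1 was apart, the Notch target Hes1 at 194 against 160 CPM (0.26), with 0.40 among Xist-only and -0.17 among Y-only cells. Notch1 had 45.8 against 38.1 CPM and the ligand gene Dll1 19.2 against 18.4, with overlapping intervals.

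Part of the mitotic list was higher in labelled cells of the stricter set. Of its 16 genes 7 had intervals apart, all higher, 1 was past 1.5-fold and the median was 0.21. Cdc20, which activates the anaphase-promoting complex, had 87.3 CPM against 52.7 (log2 ratio 0.64), with 0.74 among Xist-only and 0.57 among Y-only cells. Ccnb1, the cyclin of mitotic entry, had 63.9 against 41.3 (0.53), and Nusap1 and Cenpf, of the spindle and the kinetochore, had 0.41 and 0.35; Cenpf was -0.29 among Y-only cells. Mki67 and Top2a, which define the mitotic class, had 0.05 and 0.06, and the kinase gene Plk1 had -0.03. Of 16 replication genes 0 had intervals apart (median -0.09; Pcna 0.10, Mcm2 -0.06, Mcm5 -0.005).

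Immediate-early and stress genes went in both directions. Atf3 had 224 against 137 CPM (0.67), Fos 586 against 418 (0.48), Dusp1 95.5 against 65.6 (0.48) and Junb 323 against 249 (0.36). The inducible chaperone genes Hspa1b and Hspa1a went the other way, with 38.4 against 64.9 CPM (-0.63) and 83.6 against 119 CPM (-0.47). Of 13 members 7 were apart higher and 4 lower. Genes of this list respond to tissue handling as well as to signals in the tissue, and the part of handling was not tested. Cyr61, a matricellular target of YAP, had 52.3 against 24.6 CPM (0.85), and Fstl1 had 24.0 against 10.2 (0.75), with -0.23 among Y-only cells.

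Goblet genes were lower in the labelled cells of the stricter set over all cells, though not among Y-only cells. Of 13 goblet genes 11 had intervals apart lower and 7 were past 1.5-fold (median -0.61). Agr2 had 348 against 606 CPM (-0.79) and Spink4 499 against 881 (-0.81). The direction held among Xist-only cells (list median -1.03; Agr2 -1.60) and turned among Y-only cells (list median 0.64; Agr2 0.64). Without the 3 cells of each group that held most of them, Agr2 was -2.97 and Spink4 -2.17. Goblet cells were 3 of 124 labelled and 14 of 313 unlabelled cells there. Leaving out 3 cells of each group can take away all labelled goblet cells, so those values cannot test the direction. Among Xist-only cells goblet cells were 1 of 95 labelled and 9 of 199 unlabelled, and among Y-only cells 2 of 22 and 5 of 97. These counts are too small to read the turn as a difference between the kinds of cell. Enterocyte genes went both ways, with 3 of 16 apart higher and 6 lower (median -0.04). Apoa1 had 17.8 against 127 CPM (-2.30, and -0.34 without the 3 top cells), and Sis had 78.3 against 60.4 (0.33). The other genes named as lower were Mmp7 (5.93 against 32.4 CPM; -1.41), the metalloproteinase that activates defensins, Guca2b (10.7 against 44.2; -1.39), Ccl9 (-1.04), Fyb (-1.03), Itln1 (-0.84), Guca2a (-0.82), Rnase1 (-0.81) and Creb3l1 (-0.71). Among Y-only cells Itln1 was 0.48 and Guca2a 0.73.

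**Figure D4:**
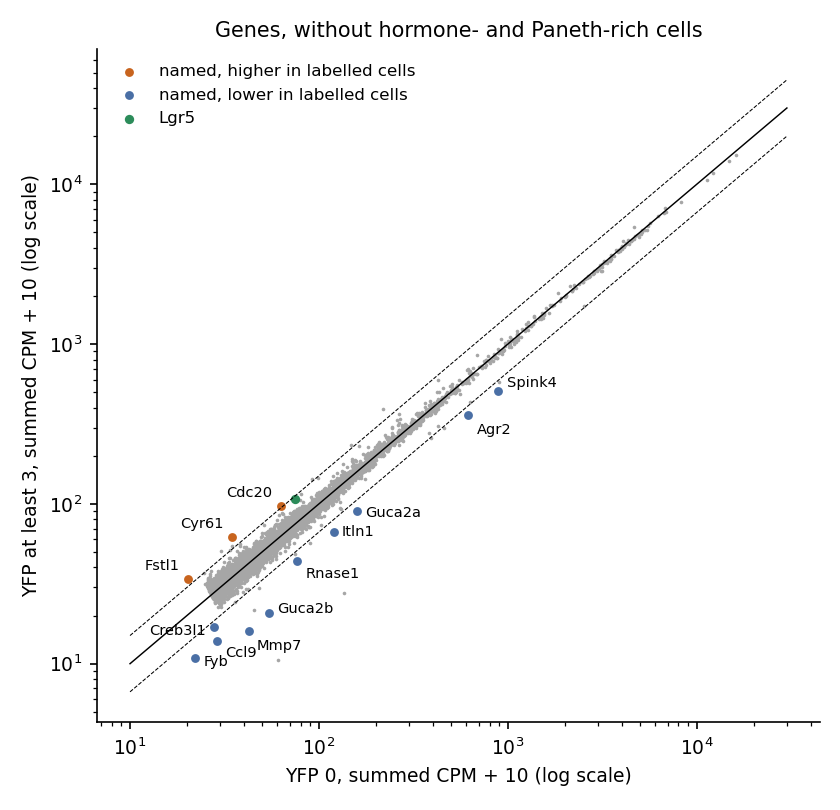
Summed level of each gene with at least 200 UMIs in unlabelled (x axis) and labelled (y axis) cells of the stricter set, in CPM plus 10 on log scales. The solid line marks equal levels and the dashed lines 1.5-fold; named genes are coloured, Lgr5 is green, and grey points outside the lines did not meet the rule for named genes.

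Within the stem class labelled and unlabelled cells differed in few genes. Of 2566 genes with at least 200 UMIs in the 49 and 74 cells, 33 (1.29%) were at least 1.5-fold apart, 27 higher (1.05%) and 6 lower (0.234%). Of these cells 2 labelled ones were Paneth-rich, with 5 and 6 Lgr5 UMIs, and 9 of 11 Paneth genes were past 1.5-fold higher, beside 0.829% higher and 0.797% lower over all genes with at least 20 UMIs. Without the hormone- and Paneth-rich cells, leaving 45 and 67, 6 of 2300 genes (0.261%) were past 1.5-fold. Per cell, Lgr5 ran from 51.1 through a median of 232 to 684 CPM in these labelled stem cells and from 23.1 through 211 to 856 in the unlabelled ones. Summed, it had 247 CPM (220 to 277) against 212 (192 to 233), with overlapping intervals.

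Among genes that did not define the class, Cyr61 had 98.2 CPM (81.2 to 118) in labelled and 40.3 (31.9 to 50.1) in unlabelled stem cells of the stricter set (log2 ratio 1.11), with 1.15 among Xist-only and 0.92 among Y-only cells. Adh6a, an alcohol dehydrogenase gene, had 34.9 against 11.6 (1.06), on 42 and 23 UMIs. Cdc20 had 95.7 against 48.3 (0.86), with 1.14 among Xist-only and -0.20 among Y-only cells. The nuclear lamina gene Lmna had 42.4 against 23.2 (0.66), and Fam83b, Sdhaf3, Prkra, Arap2 and Slco3a1 lay between 0.61 and 0.73. Tsix, which is read from the strand opposite to Xist, had 0.76, and whether some of its UMIs came from Xist transcripts was not tested.

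On the lower side, Areg, the gene of the EGF receptor ligand amphiregulin, had 10.8 CPM (5.76 to 18.5) in labelled against 32.2 (24.8 to 41.1) in unlabelled stem cells of the stricter set (-1.02). Over all cells of that set Areg went the other way, with 44.4 against 24.6 CPM (0.65, and 0.36 without the 3 cells of each group that held most of it). The histone gene Hist1h2bc had 34.9 against 79.1 (-0.99). Tmem250-ps, Cramp1l, Tpmt, Plek2, Smim6, Upf3a, Mbtps1 and Mia3 lay between -1.11 and -0.66. The antimicrobial lectin genes Reg3b and Reg3g stood at 383 against 571 CPM (-0.57) and 222 against 373 (-0.72), also without 3 cells of each group (-0.31 and -0.33).

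By list, 6 of 16 mitotic genes were apart higher in stem cells of the stricter set (median 0.33; 0.55 among Xist-only and -0.81 among Y-only cells, of which only 6 were labelled). Of 16 replication genes 0 were apart (median 0.03). Of 17 stem genes 1 was apart, Olfm4 at 9544 against 8494 CPM (0.17), and 1 was past 1.5-fold, Tnfrsf19 at 14.1 against 28.7 CPM (-0.68), with overlapping intervals. Over all genes with at least 20 UMIs in these cells 0.745% were apart higher and 0.556% lower, and 0.989% were past 1.5-fold higher and 0.878% lower.

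Over all labelled mitotic cells the higher genes were led by hormone and granule genes, and without the hormone-rich cells few genes differed. In the 60 labelled and 121 unlabelled mitotic cells, 25 of 4367 genes (0.572%) were at least 1.5-fold apart, 18 higher (0.412%) and 7 lower (0.16%). The 10 genes named as higher were Cck at 1241 against 15.3 CPM (5.63), the granule gene Chgb at 496 against 96.9 (2.24) and Rbp4, Scg2, Cdkn1c, Sct, Cpe, Isl1, Aplp1 and Prnp at 1.32 to 3.16. The 7 hormone-rich mitotic cells were among these 60. In the stricter set, whose limit uses part of these genes, 7 of the 10 had a log2 ratio just below 0 or lower. Without hormone- and Paneth-rich cells (52 and 116), 18 of 4115 genes (0.437%) were past 1.5-fold, 9 in each direction (0.219%).

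In those 52 and 116 cells, Cdc20 stood at 151 CPM (134 to 170) in labelled and 89.4 (80.5 to 98.9) in unlabelled cells, with a log2 ratio of 0.70, 0.62 among Xist-only and 0.99 among Y-only cells. Ccnb1 had 114 against 73.8 (0.57). Of 14 mitotic genes that did not define the class 7 were apart higher (median 0.27; 0.13 among Xist-only and 0.54 among Y-only cells). Of 16 replication genes 0 were apart (median -0.20). Over all genes with at least 20 UMIs in these cells 1.41% were apart higher and 0.882% lower, and 0.21% were past 1.5-fold higher and 0.331% lower.

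Stress genes of labelled mitotic cells in the stricter set again went both ways, with 7 of 13 apart higher and 3 lower, and 3 past 1.5-fold higher and 1 lower. Hspa1b had 38.3 against 65.2 CPM (-0.64), with -0.19 among Xist-only and -0.87 among Y-only cells. Atf3 had 223 against 118 CPM (0.87), Hbegf, an EGF receptor ligand gene, 116 against 58.5 (0.88), the endothelin gene Edn2 36.2 against 15.1 (0.88) and Hes1 217 against 149 (0.51). Atf3, Hbegf and Edn2 were higher among both Xist-only cells (0.86, 0.81 and 0.57) and Y-only cells (1.44, 0.99 and 1.68). Lgr5 itself had 84.1 against 58.5 CPM (0.46). On the other side, Mmp7 had 1.06 against 26.3 CPM (-1.71), Ccl9 -1.54, Guca2b -1.29 and Rnase1 -1.28.

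The goblet genes in mitotic cells show how few cells can set a sum. Tff3, a trefoil peptide gene, had 363 against 791 CPM in the stricter set (-1.10), with -3.63 among Xist-only cells and 1.10 among Y-only cells. Fcgbp (-1.12) and Agr2 (-1.06) turned in the same way. Without the 3 cells of each group that held most of them, Tff3 was -3.42, Fcgbp -3.44 and Agr2 -3.13, while Zg16 went from -1.91 to -0.04. The list had 7 of 13 genes past 1.5-fold lower and a median of -0.72, -2.39 among Xist-only and 1.10 among Y-only cells. Of these mitotic cells 1 labelled and 7 unlabelled cells met the goblet limit. Leaving out 3 cells of each group can take away that 1 labelled cell and keep unlabelled ones, so those values cannot test the direction.

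**Figure D5:**
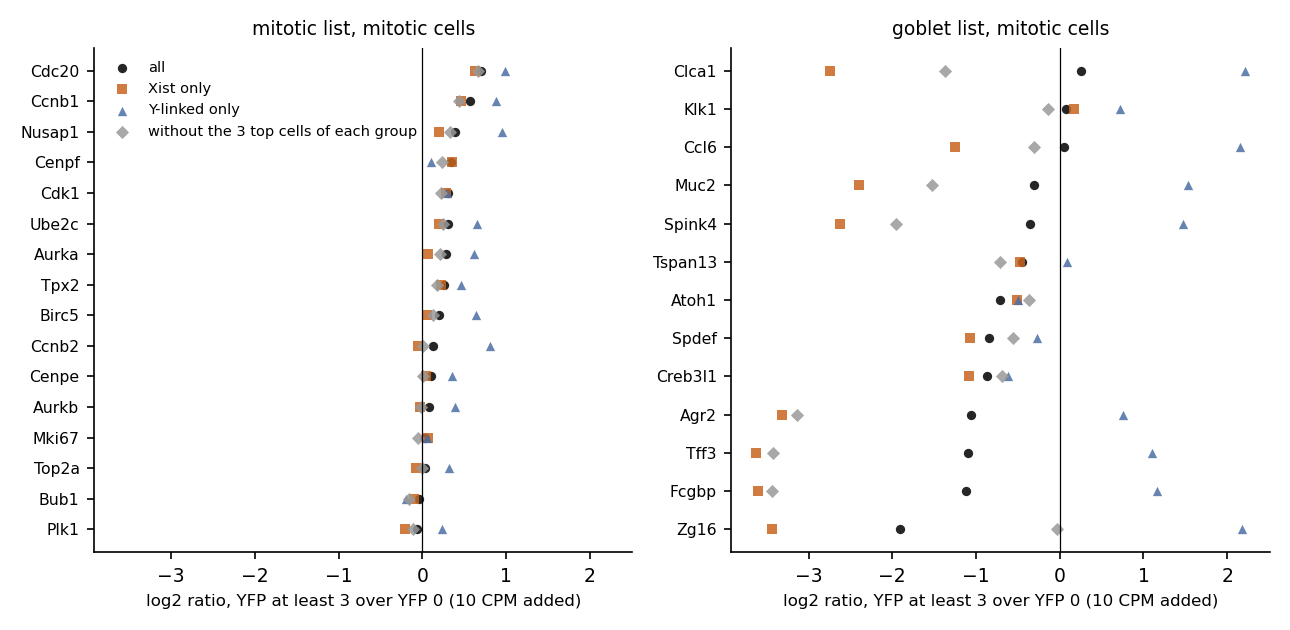
Log2 ratio of labelled over unlabelled mitotic cells of the stricter set for each gene of the mitotic list (left) and the goblet list (right), over all cells, Xist-only cells, Y-only cells, and without the 3 cells of each group that hold most UMIs of the gene. The mitotic list, of which Mki67 and Top2a define the class, stays within about 1 of 0, while goblet genes such as Tff3 lie at -3.63 in Xist-only and 1.10 in Y-only cells.

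Fewer than 10 labelled cells fell in each of the other classes, so these are described cell by cell. The 8 labelled enterocytes held 13051 to 64219 UMIs, 11 to 30 of YFP and 3 to 24 of Alpi. All 8 expressed Sis, the gene of sucrase-isomaltase, with 4 to 54 UMIs, and Rbp2, a retinol carrier, with 8 to 150. Sis stood at 699 CPM (603 to 806) summed over them and 602 (542 to 667) over the 18 unlabelled enterocytes. Apoa1, a lipoprotein gene of mature villus cells, stood at 118 against 1563 CPM, and 3 of the unlabelled cells held 209, 189 and 521 of its 945 UMIs while the highest labelled cell held 14. Fabp1 followed, with 2270 against 4105 CPM, and Fabp2 had 943 against 3320. Labelled enterocytes thus included none of the cells richest in Apoa1, while the intervals of Sis overlapped.

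The 8 labelled goblet cells held 1.14 to 4.93% of their UMIs in the 3 genes of the limit, and 3 of them were Y-only. Spink4 stood at 21086.6 CPM over them and 22862 over the 21 unlabelled goblet cells, Tff3 at 12495 and 14841, and Clca1, a secreted mucus component, at 2663 and 1958. Clca1 was found in 4 of the 8 labelled and 18 of the 21 unlabelled cells. One of the 8 held 1377 Cck UMIs of 8777 beside 110 of Agr2 and 7 of Tff3, and belongs to the hormone-rich cells above. The secretory factor Spdef was found in 7 of the 8 and 18 of the 21 cells.

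The 3 labelled cells with Neurog3 differed among themselves. One was the cell with 468 Sst UMIs described above, with 3 Neurog3 UMIs. The other two held 17 Neurog3 UMIs each, with 7 and 5 of YFP, 2 and 0 of Chga, 67 and 65 of Sox4 and 5 and 2 of Dll1, and no Neurod1. The 4 unlabelled cells held 16, 17, 42 and 6 Neurog3 UMIs, with Sox4 between 54 and 97 and Neurod1 at 0 in each. Insm1, an early endocrine factor, was found in all 7 cells. Neurod1, which acts after Neurog3, was found in 17.3% of all labelled cells (11.8 to 24.0%) and 5.88% of unlabelled cells (3.63 to 8.94%), and in 4.88% of unlabelled cells with hashtags 3 and 4 (2.55 to 8.37%). These shares include the hormone-rich cells. Nearly all of the 20 labelled hormone-rich cells held Neurod1, as did all of the 5 unlabelled ones. Neurod1 is part of the limit of the stricter set, where it had 9 and 11 UMIs in all.

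Labelled and unlabelled cells that met none of the class limits differed in many genes over all cells and in few in the stricter set. Over the 59 labelled and 144 unlabelled cells of this kind, 428 of 2771 genes (15.4%) were at least 1.5-fold apart, 57 higher (2.06%) and 371 lower (13.4%), with 2.45% and 7.92% among genes with at least 20 UMIs. The median over these genes was -0.23, against -0.0008 in the stricter set. Paneth genes took 175895 CPM in labelled and 1881 in unlabelled cells. A high share of a few genes lowers the CPM of all others, and its part in the 371 was not tested. In the stricter set, with 38 and 136 cells, 13 of 2424 genes (0.536%) were, 6 higher (0.248%) and 7 lower (0.289%), with 1.26% and 1.64% among genes with at least 20 UMIs. There St3gal4, a sialyltransferase gene, had 190.3 against 82.0 CPM (1.12), with -0.38 among Y-only cells, while Crkl, an adaptor protein gene, was lower (-1.12). The lectin genes Reg1, Reg3b and Reg3g were past 1.5-fold higher (0.78, 0.77 and 0.87), but a few cells held most of these UMIs. Without the 3 cells of each group with most of them, Reg1 was -1.41, Reg3b -1.37 and Reg3g -0.65.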

How the data were processed

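UMI counts of 31055 genes and counts of 4 hashtags were deposited by the authors as raw counts. Per the submitters' processing notes, which give no versions, Cell Ranger and Seurat were used; a header line of the matrix names version 3.1.0, and the aligner was not given in the sources used here. The labels name a human build although gene identifiers are mouse, so no coordinates are used. The filter behind the authors' 2335 cells is not stated. Members, lists and alternatives were chosen with earlier results of these data known, and the stricter set after the values given here were seen. Groups and classes follow the limits in the text; UMIs were summed per group, scaled to 1000000 and compared as log2 ratios with 10 CPM added. A gene counts as past the fold at 1.5-fold with at least 200 UMIs over both groups (20 for lists). Named genes are the 10 highest and 10 lowest ratios among genes of 50 UMIs or more, present in 5% or more of the cells of the higher group, with intervals apart and still past 1.5-fold without the 3 cells of each group that hold most UMIs. Genes that define a class, mitochondrial genes and models without a name were not named, nor more than 3 genes of a near-identical family. No doublets were removed: Scrublet (scanpy 1.11.5) marked 2 of 2335 cells, 0.0857%, so its threshold did not work, and its scores were used only for an alternative. On simulated data with 200 genes changed 2-fold, 86.5% of those genes were recovered among 6727 genes over all cells, 87.5% among 2561 in stem cells and 91.5% among 4356 in mitotic cells. There each cell was drawn with Poisson counts from 1 pooled profile, without cell types. These rates therefore do not cover sums that a few cells set. Alternatives changed the YFP, hashtag, UMI and endocrine limits, the sex-linked kind of cell, depth, filter and pseudocount. Python 3.11.15, numpy 2.4.6, scipy 1.17.1, pandas 2.3.3 and matplotlib 3.10.9 were used.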

Additional observations from a re-analysis of the deposited data

Results flagged for a closer look

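Barcodes that the authors left out of their table also carried the reporter. Of 793 left-out barcodes that met the hashtag, Chga, Tph1 and UMI limits, 72 held at least 3 YFP UMIs (9.08%), 134 held 1 or 2 and 587 held 0; this was singled out because these barcodes entered no comparison above and, with hashtags 3 and 4, 0 of 172 left-out barcodes held 3. The 72 had a median of 12887.5 UMIs and 13.0% mitochondrial UMIs, and 34 of them lay within the highest mitochondrial share of the kept cells, 12.5%. Among them 11 met the Lgr5 limit and 14 the mitotic limit.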

How the results depend on the processing

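No paired analysis was possible because 1 library holds both groups and there is no replicate. Intervals cover counting error only, classes rest on a few UMIs per cell, and the causes of the changes below were not tested. The stem share was higher in labelled cells in 14 of 14 alternatives, by 1.99 to 14.9 points, with intervals apart in 2. These alternatives draw on cells of the same library and are not independent. They include the stricter set, chosen after the values were seen, and the same set thinned. The 14.9 points came from the stricter set, where the intervals were apart. Other share differences left the interval of the main value in 4 cases: mitotic 21.9 points with at least 10 YFP UMIs and -7.37 in Y-only cells, enterocyte 4.71 with at least 10 YFP UMIs and goblet 4.52 in Y-only cells. The sign of the difference held in 9 of 14 alternatives for mitotic, 7 for enterocyte, 12 for goblet and 10 for Neurog3 cells.

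The count of genes past 1.5-fold over all cells, 76, became 44 with the endocrine list under 0.1%, 41 thinned, 135 at 50 UMIs and 23 in the stricter set. Genes of the endocrine list were left out of the 44. These genes, defensins and Lyz1 were left out of all counts of the stricter set, so fewer genes as well as fewer cells were counted there. In stem cells 33 became 57 with at least 10 YFP UMIs, 13 with Chga and Tph1 below 2, 14 in Y-only cells, 10 thinned, 97 at 50 UMIs, 13 without the 3 top cells and 6 in the stricter set. In mitotic cells 25 became 85 in Y-only cells, 10 thinned, 74 at 50 UMIs and 38 with 1 CPM added. In all, 99 shares and counts stayed within the interval of the main value, or within 1.5 times the main count, and 19 did not.

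Of 56 named genes 27 changed sign somewhere (41 of their values; 598 stayed within the interval of the main ratio and 257 moved outside it without changing sign). Over all cells with at least 10 YFP UMIs, Ghrl was -0.41, Defa29 -3.05, Defa30 -3.58, Cck -1.81, Defa21 -1.33, Mptx2 -2.01, Lyz1 -1.13, AY761184 -4.46 and Clps -2.07. With the endocrine list under 0.1%, Ghrl was -0.18 and Rbp4 -0.10. In the stricter set Ghrl was -0.10, Mptx2 -0.12, Lyz1 -0.30, AY761184 -0.073, Clps -0.61 and Rbp4 -0.093. In Y-only cells Guca2a was 0.27, Fcgbp 0.88 and Tff3 1.10, and with Chga and Tph1 below 2 Zg16 was 0.071. In stem cells, Y-only, Rasd1 was -0.33, Cdc20 -0.25 and Anxa2 0.57, and thinned Anxa2 was 0.98. In mitotic cells with the endocrine list under 0.1%, Rbp4 was -0.059, Sct -0.69, Cpe -0.21, Isl1 -0.034, Aplp1 -0.065 and Prnp -0.0092. With the stricter set Rbp4 was -0.057, Sct -0.73, Cpe -0.20, Chgb -0.012, Isl1 -0.034, Aplp1 -0.058 and Prnp -0.0026. In Y-only mitotic cells Fcgbp was 0.81, Tff3 0.77 and Agr2 0.41.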

Other observations

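Among gate cells that the 3-fold hashtag rule left unassigned, 5 of 774 held at least 3 YFP UMIs and 729 held 0. Of these 774 cells 751 were Xist-only and 2 were Y-only.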
